A study of Rattus norvegicus with 16 samples.

Results

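The collagen genes other than collagen IV were the rows of the deposited gene expression table whose gene name is Col, a number, the letter a and a number, with every Col4a row left out. The rule took 36 genes out of 35849 in the table, and the 6 Col4a rows stayed outside it. Renal tissue of 16 male Sprague Dawley rats had been measured by mRNA sequencing, with 4 rats in each of 4 groups. The rats were 6 to 8 weeks old at the start. Normal rats received citrate buffer and a normal diet. DN (diabetic nephropathy) rats received streptozotocin, a toxin of the insulin-producing beta cells, at 45 mg/kg together with a diet high in glucose and fat, and only animals with blood glucose above 16.7 mmol/L were kept. Both remaining groups shared the streptozotocin, the glucose limit and the diet of the DN group and were also given sinomenine (SIN), a plant alkaloid, for 8 weeks, at 20 mg/kg per day in one, SIN (20 mg/kg), and at 40 mg/kg per day in the other, SIN (40 mg/kg). No group received SIN without streptozotocin, so an effect of SIN on normal kidney cannot be told apart here.

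Collagens are proteins of the extracellular matrix in which 3 chains wind into a triple helix. Fibrillar collagens such as types I and III form the cross-striated fibrils that carry tension, and their accumulation between the tubules is a hallmark of renal fibrosis. FACIT collagens (fibril-associated collagens with interrupted triple helices) decorate those fibrils, type VI forms beaded microfilaments around cells, and types XV and XVIII, the multiplexins, sit in or beside basement membranes. In the kidney, fibroblasts and pericytes make most of the interstitial chains. In whole renal tissue, fewer cells of a type and less RNA per cell cannot be told apart.

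Of the 36 genes, 27 had a promoter in RefSeq, whose rat coordinates are those of the GRCr8 build and not of the Rnor_6.0 build on which the reads had been aligned. The 250 bases before the start are shown for Col15a1 and Col9a1, the only members with a RefSeq promoter among the 3 that passed the adjusted test in any comparison, and for Col16a1, which came closest below it. Col1a1 had no entry. The letters searched on both strands were GGGCGG (the GC box), CCAAT (the CCAAT box) and TATAAA (the TATA box), and capitals mark a match.
Col15a1: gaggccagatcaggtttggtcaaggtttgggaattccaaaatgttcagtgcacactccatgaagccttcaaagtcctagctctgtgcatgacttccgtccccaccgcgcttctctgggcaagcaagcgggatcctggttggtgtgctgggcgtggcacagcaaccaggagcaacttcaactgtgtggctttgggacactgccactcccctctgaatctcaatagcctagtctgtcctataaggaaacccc
Col9a1: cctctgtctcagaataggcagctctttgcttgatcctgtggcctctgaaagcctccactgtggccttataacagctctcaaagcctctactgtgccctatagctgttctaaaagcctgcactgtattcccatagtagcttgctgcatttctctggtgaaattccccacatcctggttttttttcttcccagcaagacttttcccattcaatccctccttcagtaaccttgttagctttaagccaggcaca
Col16a1: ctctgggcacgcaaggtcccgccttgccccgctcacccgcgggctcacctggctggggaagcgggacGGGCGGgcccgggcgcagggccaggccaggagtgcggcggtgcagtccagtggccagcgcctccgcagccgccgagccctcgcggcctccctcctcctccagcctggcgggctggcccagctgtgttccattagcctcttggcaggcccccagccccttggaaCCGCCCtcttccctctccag
These lie at chr5:66297296-66297545, chr9:34081114-34081363 and chr5:147672846-147673095, all on the plus strand. Their GC contents were 54.0%, 46.8% and 74.8%, beside a median of 58.8% over the 27 members and 52.0% over all 27457 promoters. None of the 3 motifs lay in the Col15a1 and Col9a1 windows, and the Col16a1 window held 2 GC boxes. The GC box was in 14 of the 27 member promoters, beside 32.4% of all promoters. The CCAAT box was in 8 of the 27 beside 34.3%, and the TATA box in 3 of the 27 beside 13.1%.

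Each rat had between 19616312 and 25217030 estimated counts in all. Levels are in CPM, in which counts of all 16 rats were brought to a library total of 1000000 by TMM scaling. Differences between groups are printed as log2 fold changes of the edgeR quasi-likelihood fit with a standard error. That error was derived as the absolute log2 fold change divided by the square root of its F statistic. Benjamini-Hochberg adjusted p-values of edgeR run over every gene tested in a comparison. Genes with few counts were removed before each fit, which left 25 members tested in DN over normal. The other 11 were tested in no comparison. Each of them had a mean of at most 0.35 CPM (Col28a1), and Col25a1 had no count in any rat, which allows up to 3 counts per library, or 0.119 to 0.153 CPM.
The proximal tubule markers Slc34a1, Lrp2, Cubn, Slc5a2, Slc22a6 and Aqp1 summed to between 9249 and 14034 CPM in every rat, so the libraries carried the labelled tissue's main cell type. DN replicate 3 stood apart in other markers. Its 9 smooth muscle and pericyte markers summed to 947 CPM, while the other DN rats had 291 to 425 and the highest normal rat had 327. Its 10 urothelial markers summed to 123 CPM, beside 1.87 in the lowest DN rat and 57.8 in normal replicate 1. This rat was the highest of the 4 DN rats in 12 of the 25 tested collagens, and calls on the collagens that changed without it are given both ways. The libraries of the normal group carried the numbers 1 to 4 and those of the other groups numbers from 12 to 39, and what the numbers stand for is not given in the sources used here.

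Levels of different genes were compared as CPM per kilobase of the length in the table. Col18a1, the source of endostatin, stood highest with a mean of 56.4 CPM per kilobase over all rats. Next came Col3a1 with 16.6, Col12a1 with 14.9, Col6a2 with 11.1, Col6a1 with 10.6 and Col1a1 with 9.57. At the lower end of the tested members were Col24a1 with 0.11 and Col7a1, the anchoring fibril collagen, with 0.06. Of the chains best known from cartilage, Col11a1 was at 0.82 CPM per kilobase on average, Col9a2 at 0.46, Col9a1 at 0.15 and Col11a2 at 0.14. Lower still were Col2a1 at 0.04, Col9a3 at 0.03 and Col10a1 at 0.007 CPM per kilobase.

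**Figure D1:**
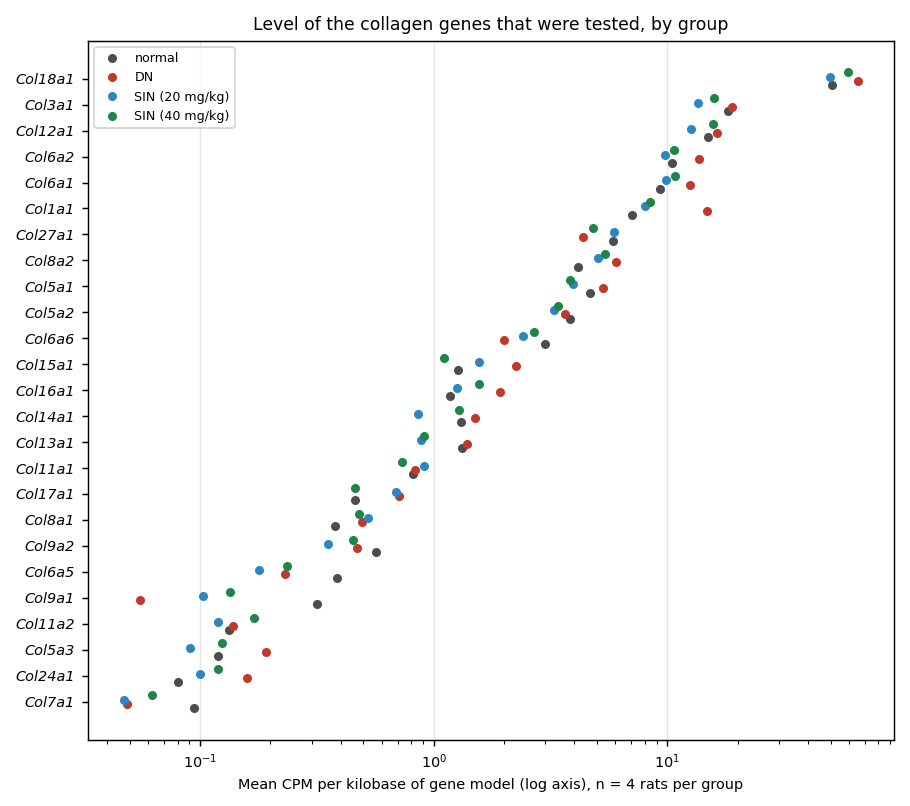
Mean level of the 25 tested collagens in each group (CPM per kilobase of the length in the table, log axis, 4 rats per group, 1 point per group). Col18a1 is highest in every group, the red DN point of Col1a1 stands to the right of its other groups, and the red DN point of Col9a1 stands to the left of its other groups.

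Diabetic and normal kidneys were compared first, to ask which collagens differed in the disease model. Col1a1, the alpha 1 chain of fibrillar type I collagen, and Col15a1 rose in DN rats, while Col9a1, a chain of the FACIT type IX best known from cartilage, fell. These 3 of the 25 tested members passed an adjusted p of 0.05, 2 of them higher and 1 lower. The lower one, Col9a1, entered the test through its counts in the normal rats, so its call is not independent of the filter. Among all 15775 genes tested, 19.5% passed, 8.74% higher and 10.8% lower, so the share of collagens that passed did not stand above the background. At an unadjusted p under 0.05, 6 members were higher and 1 was lower, against 17.5% and 19.4% of all genes. The log2 fold change was above 0 in 18 of the 25, with a median of 0.19 beside 0.00 over all genes. Leaving out 1 rat moved this median to between 0.11 (without DN replicate 3 or normal replicate 2, each with 15 of 25 above 0) and 0.32 (without normal replicate 3). All DN rats were above all normal rats in 2 of the 25 and below them in 1, against 11.2% and 13.1% of genes.

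Col1a1 (ENSRNOG00000003897) was at 60.7, 32.8, 26.2 and 44.3 CPM in the normal rats and at 77.9, 98.2, 111 and 57.9 CPM in the DN rats. The groups overlapped, because DN replicate 4 lay below normal replicate 1. The log2 fold change was 1.08 ± 0.27 (SE, adjusted p = 0.0262). Without DN replicate 3 it was 0.93 ± 0.28, with an adjusted p of 0.0531.

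Col15a1 (ENSRNOG00000060381) was at 7.54, 4.02, 5.71 and 9.16 CPM in the normal rats and at 13.7, 10.1, 12.3 and 10.9 CPM in the DN rats. Every DN rat was above every normal rat. The log2 fold change was 0.83 ± 0.24 (SE, adjusted p = 0.0388), and 0.81 ± 0.27 with an adjusted p of 0.0689 without DN replicate 3. The table also holds a row described as collagen alpha-1(XV) chain-like, LOC108348074, at 0.09 to 3.14 CPM. Counts of Col15a1 were fractional in all 16 libraries. With the rows added together, the log2 fold change was 0.72 (adjusted p = 0.0322).

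Col9a1 (ENSRNOG00000012920) had few reads, with 47, 18, 14 and 26 estimated counts in the normal rats and 2, 1, 5 and 10 in the DN rats. In CPM these were 2.19, 0.87, 0.61 and 1.16 against 0.09, 0.05, 0.22 and 0.48, with no overlap. The gene passed the filter here through the normal rats, and it had too few counts to be tested in either comparison of SIN over DN. The log2 fold change was -2.48 ± 0.65 (SE, adjusted p = 0.0290), and -2.52 with an adjusted p of 0.0548 without DN replicate 3. Its partner chain Col9a2 did not pass, with a log2 fold change of -0.26 ± 0.34, and the third chain, Col9a3, had too few counts to be tested.

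Among the other fibrillar collagens, none passed the adjusted test in DN over normal. Col3a1, which forms fibrils together with type I in soft tissue, was at 110, 61.1, 86.4 and 90.8 CPM in normal and at 80.4, 95.1, 126 and 58.8 CPM in DN rats. The ranges overlapped over most of their length, and the log2 fold change was 0.05 ± 0.23. The type V chains, which start fibril assembly, had log2 fold changes of 0.19 ± 0.13 (Col5a1), -0.07 ± 0.15 (Col5a2) and 0.68 ± 0.42 (Col5a3). The fibrillar genes Col24a1 and Col27a1 had 0.98 ± 0.59 and -0.41 ± 0.26. Col24a1 was at 0.04 to 0.51 CPM in normal and 0.45 to 1.10 CPM in DN rats.

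Type VI collagen is built mainly from the chains alpha 1, alpha 2 and alpha 3. Col6a2 was at 44.1, 40.2, 39.1 and 30.8 CPM in normal and at 45.9, 52.0, 58.1 and 45.7 CPM in DN rats, again without overlap. Its log2 fold change of 0.39 ± 0.13 did not pass the adjustment (adjusted p = 0.0588), nor did the 0.42 ± 0.15 of Col6a1 (adjusted p = 0.0680). Col6a5 and Col6a6, chains that can take the place of alpha 3, had log2 fold changes of -0.73 ± 0.35 and -0.57 ± 0.40. Col6a6 was spread widely, from 11.6 to 33.3 CPM in normal and from 5.46 to 18.7 CPM in DN rats. The third main chain is in the table without a collagen symbol, as AABR07068316.1 with the description collagen type VI alpha 3 chain, and its log2 fold change was 0.03 ± 0.14.

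In the FACIT group, Col16a1 had a log2 fold change of 0.70 ± 0.22 (adjusted p = 0.0513), with 13.0, 11.0, 10.1 and 6.00 CPM in DN rats and 5.71 to 6.98 CPM in normal rats. DN replicate 4 was thus inside the normal range and the other DN rats above it. Col12a1, the most abundant FACIT gene, was at 174, 155, 145 and 160 CPM in normal and 212, 178, 171 and 130 CPM in DN rats, a log2 fold change of 0.13 ± 0.14. Col14a1 reached 15.0 CPM in DN replicate 3, with 4.57 to 6.99 CPM in the remaining DN rats. Its log2 fold change turned from 0.20 ± 0.38 to -0.29 ± 0.29 without that rat, and neither value passed.

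Col8a2, a short-chain network collagen, had a log2 fold change of 0.55 ± 0.20 (adjusted p = 0.0788). Col18a1 was at 194, 325, 254 and 242 CPM in normal and 530, 335, 247 and 198 CPM in DN rats, so that 1 DN rat set the difference of the means, and its log2 fold change was 0.37 ± 0.28. Col7a1 was at 0.49 to 1.45 CPM in normal and 0.20 to 0.81 CPM in DN rats, a log2 fold change of -0.93 ± 0.50. Neither tested transmembrane collagen, Col13a1 or Col17a1, passed.

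Leaving out DN replicate 3 left 0 of 25 members past the adjusted test, with 8 at an unadjusted p under 0.05, while 16.2% of 15966 genes still passed. With all rats in, DESeq2 called 7 of 35 members, beside 18.8% of the 22115 genes it tested. The summed fibroblast markers (10 genes) ran from 401 to 499 CPM in normal and from 368 to 445 CPM in DN rats. Of these genes Cd34 and Pdgfrb rose and Dpt and Pdgfra fell in DN rats. Of the 9 smooth muscle and pericyte markers, Tagln, Mcam and Notch3 rose and Rgs5 fell, and the median log2 fold change of the 9 went from 1.20 to 0.42 without DN replicate 3. The part of these markers in the collagen differences was not tested.

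**Figure D2:**
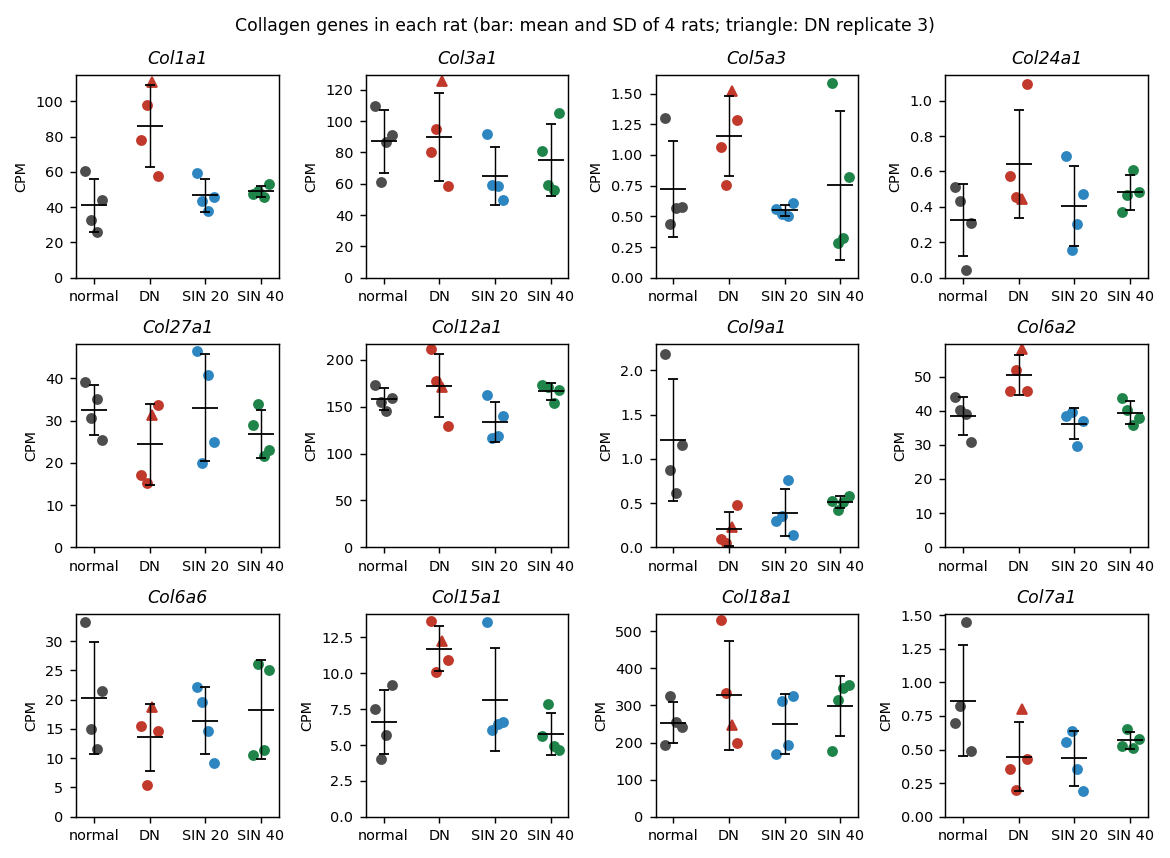
CPM of the 12 members chosen by the naming rule in each of 16 rats (points; the triangle is DN replicate 3; bars give the mean and SD of 4 rats; each panel has its own vertical axis from 0). Col6a2 and Col15a1 are higher in all 4 DN rats than in any normal rat and Col9a1 is lower, while Col3a1, Col12a1 and Col18a1 overlap.

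Treatment with SIN was compared with DN to ask whether collagen RNA was lower in treated rats. No gene of the table passed the adjusted test in either comparison (0.0% of 15724 and of 15530 genes), so no collagen did. edgeR gave 2427 genes at an unadjusted p under 0.05 with 20 mg/kg and 2657 with 40 mg/kg. DESeq2 called 2 of 35 collagens with 20 mg/kg, beside 0.9% of 22213 genes, and 3 of 35 with 40 mg/kg, beside 1.89% of 22041 genes. With 20 mg/kg, 8 of the 23 tested members had an unadjusted p under 0.05, all of them lower than in DN, against 6.24% of all genes in that direction. With 40 mg/kg, it was 4 of 24, all lower, against 7.21%. The median log2 fold change of the members was -0.39 with 20 mg/kg and -0.20 with 40 mg/kg, beside -0.01 and 0.01 over all genes. Both comparisons, and DN over normal, use the same 4 DN rats, so their values are not independent of each other.

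Col1a1 was at 59.7, 43.5, 38.0 and 45.8 CPM with 20 mg/kg and at 47.5, 49.2, 45.9 and 53.3 CPM with 40 mg/kg. All 4 rats given 40 mg/kg were below the lowest DN rat at 57.9 CPM, and 1 rat given 20 mg/kg was above it. The log2 fold changes over DN were -0.89 ± 0.21 (adjusted p = 0.270) and -0.82 ± 0.18 (adjusted p = 0.175). Without DN replicate 3 they were -0.74 and -0.67. DESeq2 gave adjusted p-values of 0.00787 and 0.00402 for them, so the call on Col1a1 depended on the tool.

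Col15a1 was at 13.5, 6.05, 6.43 and 6.58 CPM with 20 mg/kg and at 5.60, 7.88, 4.95 and 4.65 CPM with 40 mg/kg. The 40 mg/kg rats were all below every DN rat, and SIN (20 mg/kg) replicate 1 was inside the DN range. Over DN the log2 fold change was -0.53 ± 0.26 with 20 mg/kg (adjusted p = 0.356) and -1.02 ± 0.19 with 40 mg/kg (adjusted p = 0.175, DESeq2 0.000558). Added to its copy, Col15a1 had -0.86 with 40 mg/kg.

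Col6a2 was at 38.6, 39.8, 29.6 and 36.9 CPM with 20 mg/kg and at 43.9, 40.2, 35.8 and 38.0 CPM with 40 mg/kg, so that every treated rat was below every DN rat. The log2 fold changes were -0.48 ± 0.13 (adjusted p = 0.270, DESeq2 0.0432) and -0.35 ± 0.11 (adjusted p = 0.201). Groups were also separate for Col5a3 and Col13a1 with 20 mg/kg and for Col13a1 with 40 mg/kg. In all, 3 of 23 members were separate and lower with 20 mg/kg and 4 of 24 with 40 mg/kg, and none was separate and higher. Over all genes, 3.65% and 3.99% were separate and lower, and 5.34% and 6.43% separate and higher.

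Col5a3 was at 0.56, 0.52, 0.51 and 0.61 CPM with 20 mg/kg, and at 1.06, 0.76, 1.52 and 1.29 CPM in DN rats. Its log2 fold change of -1.08 ± 0.33 was the lowest of the members in that comparison (adjusted p = 0.270). With 40 mg/kg it ranged from 0.28 to 1.58 CPM and overlapped DN. The other members lower at an unadjusted p under 0.05 with 20 mg/kg were Col14a1, Col13a1, Col16a1, Col5a1 and Col12a1, with log2 fold changes from -0.82 (Col14a1) to -0.37 (Col12a1). Without DN replicate 3, 3 of 24 members were lower at an unadjusted p under 0.05 with 20 mg/kg, beside 6.28% of genes, and Col14a1 moved to -0.32. With 40 mg/kg the remaining member was Col5a1, at -0.46 ± 0.13 (adjusted p = 0.199, DESeq2 0.0477).

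In edgeR none of the abundant members passed the adjusted test over DN. Col3a1 was at 91.5, 59.4, 58.4 and 49.5 CPM with 20 mg/kg and at 80.7, 59.1, 55.8 and 105 CPM with 40 mg/kg, with log2 fold changes of -0.48 ± 0.25 and -0.26 ± 0.26 over DN. Col18a1 had -0.39 ± 0.31 and -0.13 ± 0.31. Col12a1 had -0.37 ± 0.16 with 20 mg/kg and -0.05 ± 0.14 with 40 mg/kg. Values above 0 in both comparisons were those of Col27a1 (0.43 ± 0.33 and 0.14 ± 0.27) and Col6a6 (0.27 ± 0.36 and 0.43 ± 0.40). Col7a1 was tested with 40 mg/kg only, at 0.34 ± 0.44.

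The summed smooth muscle and pericyte markers ran from 258 to 305 CPM with 20 mg/kg and from 290 to 341 CPM with 40 mg/kg, overlapping the DN rats at 291 to 947 CPM. Their median log2 fold changes over DN went from -1.24 to -0.23 with 20 mg/kg and from -1.05 to -0.10 with 40 mg/kg without DN replicate 3. Fibroblast markers summed to 334 to 427 and 357 to 407 CPM. The part of these markers was not tested, and without DN replicate 3 the median log2 fold changes of the collagens were -0.31 and -0.13.

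**Figure D3:**
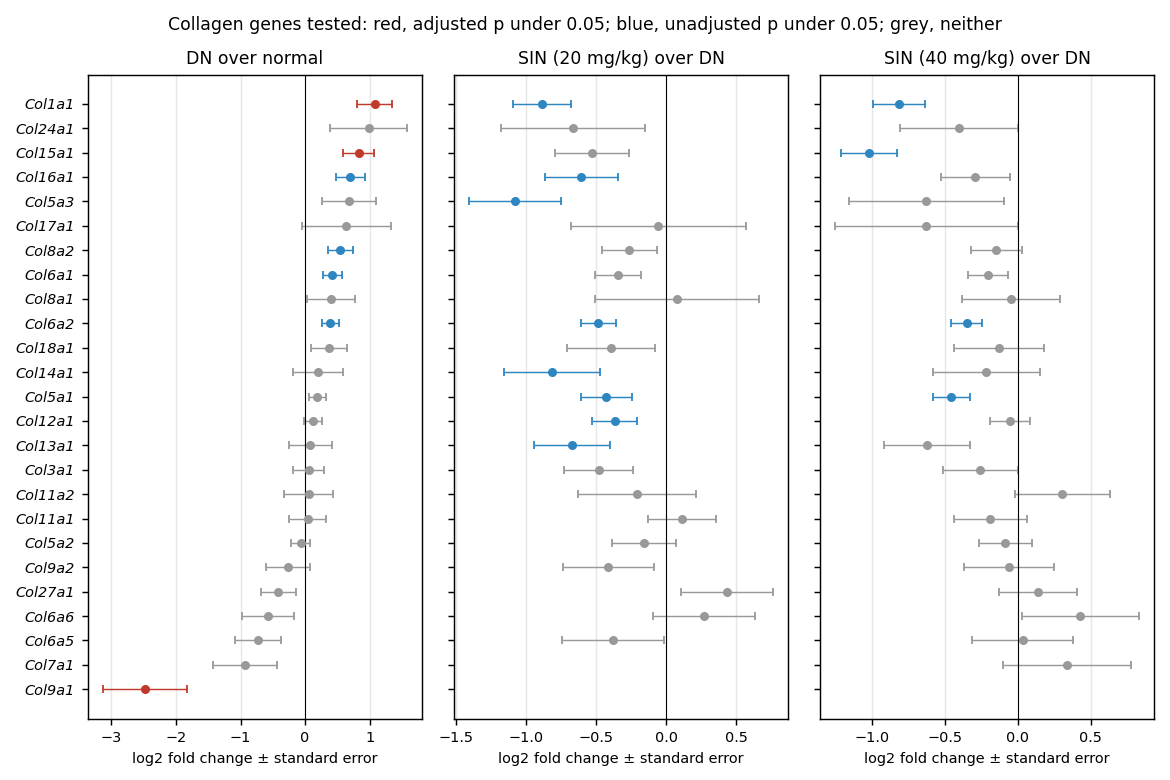
Log2 fold change with its standard error for each tested collagen in DN over normal, SIN (20 mg/kg) over DN and SIN (40 mg/kg) over DN (8 rats in each comparison; red, adjusted p under 0.05; blue, unadjusted p under 0.05; grey, neither; horizontal axes differ). Red points are Col1a1, Col15a1 and Col9a1 in DN over normal, and every blue point in both SIN panels lies below 0.

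**Figure D4:**
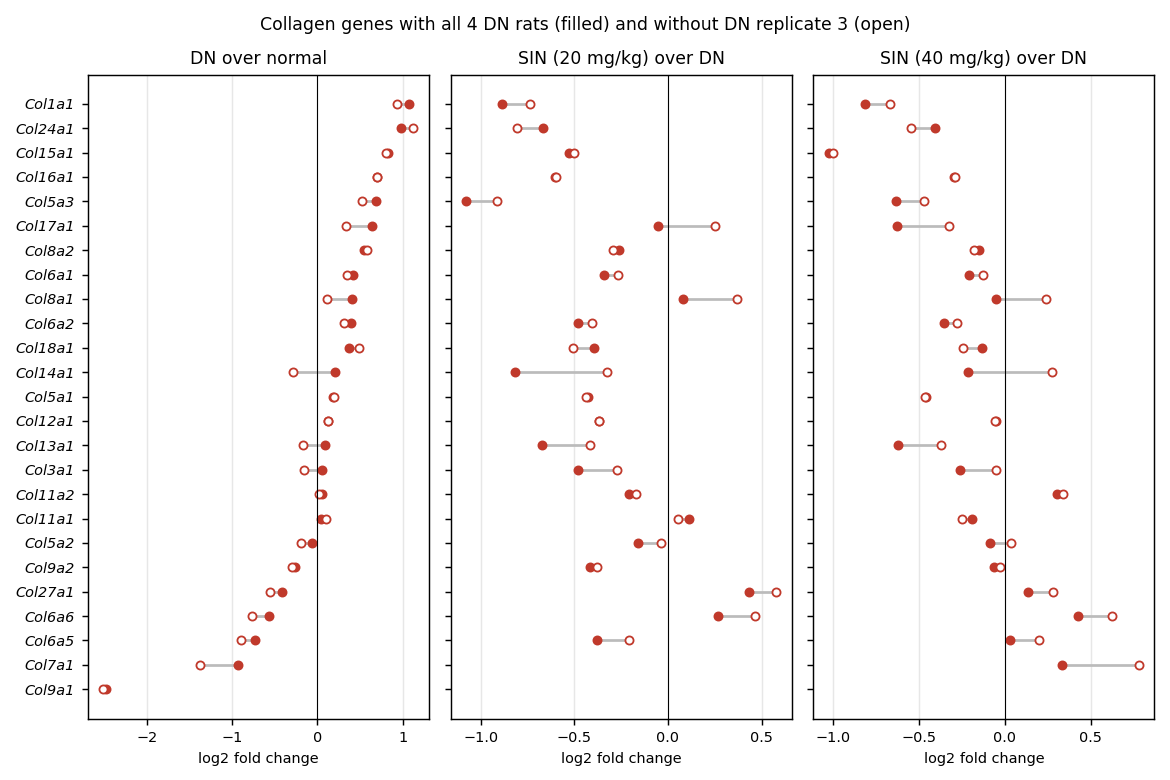
Log2 fold change of each tested collagen with all DN rats (filled) and without DN replicate 3 (open) in the comparisons with DN. Col15a1, Col16a1 and Col5a1 hardly move, Col14a1 crosses 0 in DN over normal and in SIN (40 mg/kg) over DN, and Col1a1 moves from 1.08 to 0.93 in DN over normal.

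Doses of SIN were set against each other to ask for a difference between 20 and 40 mg/kg. No collagen passed the adjusted test, and 0.00639% of the genes did. At an unadjusted p under 0.05, 2 of 25 members were higher with 40 mg/kg, Col14a1 at 0.59 ± 0.21 and Col12a1 at 0.31 ± 0.12, against 2.41% of all genes in that direction. Col1a1 differed by 0.06 ± 0.13 between the doses.

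Treated rats were also compared with normal rats, to see where the collagens stood after treatment. No collagen passed the adjusted test with 20 mg/kg, where 6.36% of genes passed, or with 40 mg/kg, where 5.97% passed. At an unadjusted p under 0.05, Col9a1, Col6a5, Col14a1 and Col9a2 were lower with 20 mg/kg (4 of 24 members, beside 10.6% of genes lower). With 40 mg/kg, Col9a1 and Col5a1 were lower and Col8a2 and Col16a1 higher (2 and 2 of 25 members, beside 11.5% lower and 11.4% higher). Col9a1 was at 0.30, 0.36, 0.76 and 0.14 CPM with 20 mg/kg and at 0.53, 0.42, 0.51 and 0.58 CPM with 40 mg/kg. Its log2 fold changes over normal were -1.64 ± 0.55 (adjusted p = 0.119) and -1.24 ± 0.43 (adjusted p = 0.122). Those of Col1a1 were 0.19 ± 0.25 and 0.25 ± 0.22.

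Type I collagen is built from alpha 1 and alpha 2 chains together, so Col1a1 was also set against the alpha 2 chain. Col1a2 has no row under its own symbol. The table holds 2 rows described as collagen, type I, alpha 2, both named NEWGENE_621351, and reads were divided between them unevenly, with 15.0 and 52.3 CPM in SIN (20 mg/kg) replicate 2 and 50.6 and 19.8 CPM in normal replicate 4. Added together, they had a log2 fold change of 0.25 ± 0.17 in DN over normal (adjusted p = 0.317), -0.49 ± 0.16 in SIN (20 mg/kg) over DN and -0.34 ± 0.16 in SIN (40 mg/kg) over DN.

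The ratio of Col1a1 to summed alpha 2 counts was 0.64, 0.44, 0.41 and 0.63 in the normal rats and 0.87, 1.02, 1.00 and 0.91 in the DN rats. It was 0.83, 0.65, 0.66 and 0.76 with 20 mg/kg and 0.68, 0.76, 0.67 and 0.65 with 40 mg/kg. Every DN rat was thus above every rat of the other groups, and every treated rat was above every normal rat, by a margin of 0.644 against 0.645 and 0.646 at the closest. Means were 0.530 ± 0.125 in normal, 0.951 ± 0.0737 in DN, 0.725 ± 0.0863 with 20 mg/kg and 0.690 ± 0.0515 with 40 mg/kg (SD, n = 4 rats). A two-sided exact permutation test gave p = 0.0286 for each of these 5 comparisons, the smallest that 4 rats against 4 allow. After adjustment over the 24 ratio tests the value was 0.0857, so none passed. With the first alpha 2 row alone the exact p was 0.0286 in DN over normal, 0.743 in SIN (20 mg/kg) over DN and 0.286 in SIN (40 mg/kg) over DN. With the second row alone it was 0.143, 0.0857 and 0.0571. The ratios were chosen after the values of the genes had been seen.

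Against Col3a1 the ratio of Col1a1 was 0.470 ± 0.115 in normal, 0.967 ± 0.0621 in DN, 0.740 ± 0.129 with 20 mg/kg and 0.688 ± 0.165 with 40 mg/kg (SD, n = 4 rats). DN was separate from normal and from 40 mg/kg (exact permutation p = 0.0286, adjusted 0.0857), and overlapped with 20 mg/kg (exact p = 0.0571). The ratio of alpha 2 to Col3a1 overlapped between DN and normal (exact p = 0.286). Col6a1 over Col6a2 had means from 0.745 to 0.843 in the 4 groups, and no pair of groups was separate.

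**Figure D5:**
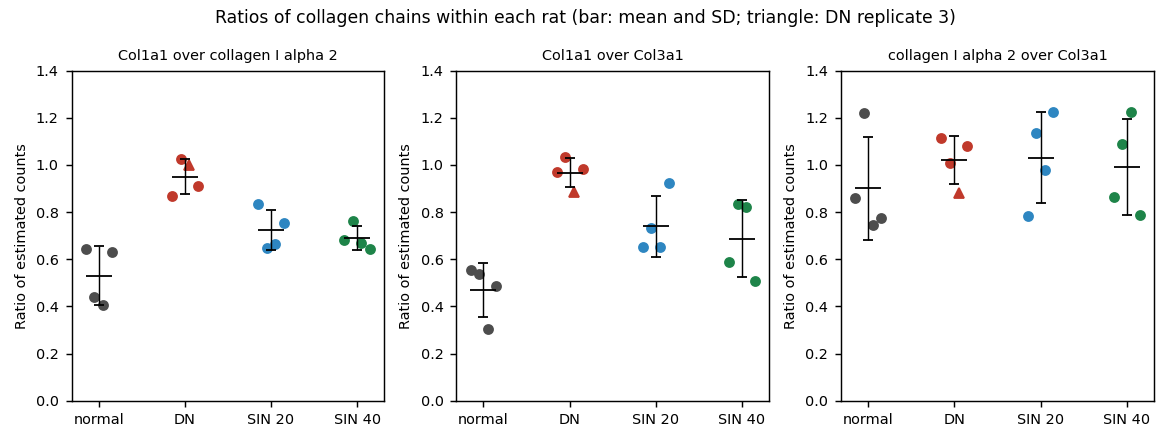
Ratios of estimated counts within each rat (points; triangle, DN replicate 3; bars, mean and SD of 4 rats) for Col1a1 over summed collagen I alpha 2, Col1a1 over Col3a1, and collagen I alpha 2 over Col3a1. In the left panel all 4 DN rats, at 0.869 to 1.02, are above the other 12, and in the right panel the groups overlap.

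Genes that process collagen were counted from fixed lists. Over all genes tested in DN over normal, 19.5% passed, 8.74% higher and 10.8% lower. In the list for procollagen cleavage and crosslinking, 13 of 14 genes were tested in DN over normal, and 4 passed higher and 1 lower. Pcolce, which enhances cleavage of the procollagen C-propeptide, rose from 27.0 ± 3.07 to 51.5 ± 10.6 CPM (SD, n = 4; log2 fold change 0.94, adjusted p = 0.00613). Bmp1, the C-propeptide protease itself, rose by 0.50, Adamts14, an N-propeptide protease, by 1.10, and Loxl1, an oxidase that crosslinks collagen and elastin, by 0.57 on the log2 scale. Tll1, a relative of Bmp1, fell by 0.73, and without DN replicate 3 it no longer passed (edgeR adjusted p = 0.0554) while the other 4 did.

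Of the 19 tested genes for synthesis and secretion, 1 passed in DN over normal, beside 19.5% of all genes. It was the prolyl 3-hydroxylase P3h1, which rose by 0.46. Without DN replicate 3, Colgalt2, a collagen galactosyltransferase, also passed, lower, at -0.997 (adjusted p = 0.0315). The collagen chaperone Serpinh1 had a log2 fold change of 0.11 ± 0.11. No gene passed of the 10 tested fibril-associated proteins with all rats in, and without DN replicate 3 the proteoglycan Dcn, which is also on the fibroblast list, passed lower, at -0.71 (adjusted p = 0.0321). For collagen breakdown, 10 genes were tested, and 1 passed higher and 1 lower, beside 8.74% and 10.8% of all genes. Mrc2, an endocytic collagen receptor, rose by 0.74 and the collagen-degrading protease Ctsk fell by 0.75. Of 7 tested collagen receptors, 1 passed higher and 3 lower, beside the same shares of all genes. Ddr1 rose by 0.44, and Ddr2, Itga1 and Itgb1 fell by 1.05, 0.57 and 0.35. Ddr2, a tyrosine kinase that binds fibrillar collagen, was at 25.3 ± 3.25 CPM in normal and 12.2 ± 2.09 CPM in DN rats (SD, n = 4).

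In SIN over DN no gene of these lists passed, as no gene of the table did. Pcolce had log2 fold changes of -0.57 ± 0.16 with 20 mg/kg and -0.26 ± 0.15 with 40 mg/kg over DN, and 0.36 ± 0.13 and 0.67 ± 0.11 over normal, of which the last passed (adjusted p = 0.00874). Ddr2 fell in both treated groups against normal, by 0.89 with 20 mg/kg and by 0.69 with 40 mg/kg. Tgm2, a transglutaminase that crosslinks matrix proteins, likewise fell in both, by 0.45 and 0.64. Against normal, the collagen-gene activator Creb3l1 fell with 20 mg/kg by 0.90, and the collagen chaperone Fkbp10 rose with 40 mg/kg by 0.66. Fkbp10 averaged 4.55 CPM in normal, 7.54 CPM in DN and 7.19 CPM with 40 mg/kg.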

How the data were processed

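Renal mRNA of 16 rats was measured, 4 per group. Reads were cleaned by the authors (SeqPrep, Sickle) and aligned to the Ensembl Rnor_6.0 rat genome with TopHat, and the submitters' processing notes also name Bowtie, RSEM and edgeR. The deposited table holds the authors' estimated counts per gene, not normalized, of which 74.3% of nonzero values are whole. Counts were rounded to whole numbers. Columns were joined to rats by the library number in the sample descriptions, whose prefix differs. Left out were 4 libraries without a sample record and 5 columns of group means.

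edgeR 4.0.16 (R 4.3.3) fitted the 8 rats of each of 6 comparisons over all genes, with TMM scaling, filterByExpr, and the two-sided quasi-likelihood test at an adjusted p of 0.05. DESeq2 1.42.0, RLE scaling, no filter, all 16 rats in 1 fit, a replicate block and leaving out each rat were alternatives. DESeq2 kept its default filter, which can leave genes with few counts without an adjusted p. Its shares are over all genes that had an unadjusted p. Ratios were tested by exact permutation with scipy 1.17.1. Adding up copy rows and testing ratios were chosen after seeing the data. Only the edgeR and DESeq2 fits were tested on simulated counts, for DN over normal and with changes larger than most collagen values here. Ratio tests, added copy rows and leaving out rats were not tested in that way.

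The members, classes, pathway lists and marker lists were chosen with earlier results of these data known. Values per rat are given for members past the adjusted test in any comparison, the 5 highest by mean CPM, the 2 largest and 2 smallest log2 fold changes in each comparison with DN, and members without overlap between DN and normal; others are named where an unadjusted p was under 0.05 or a role is described. Rats are the replicates as labelled, and p-values measure the spread between them. Limits for a count of 0 cover counting error only.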

Additional observations from a re-analysis of the deposited data

Results flagged for a closer look

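Each of the 12 members named by the rule was checked in each of the 4 groups, 48 sets of 4 rats, for a rat far from the other 3, and chance alone marks about 1 set in 20. Col15a1 reached 13.5 CPM in SIN (20 mg/kg) replicate 1, with 6.05 to 6.58 CPM in the remaining rats of that group. Col5a3 reached 1.30 CPM in normal replicate 1, with 0.436 to 0.578 CPM in the remaining normal rats. That normal rat also had the highest urothelial marker sum of its group, at 57.8 CPM, and the part of those markers in the Col5a3 value was not tested.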

How the results depend on the processing

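The count of collagens at an adjusted p under 0.05 in DN over normal was 3, and became 6 with all 16 rats in 1 fit, 7 of 35 with DESeq2 and 0 to 5 when each rat was left out in turn, with 0 without DN replicate 2 or DN replicate 3, 1 without DN replicate 1, normal replicate 3 or normal replicate 4, and 5 without normal replicate 2. Same-numbered rats did not deviate together, with correlations from -0.238 to 0.244, and the replicate block gave 0 in DN over normal. DESeq2 called 2 of 35 collagens in SIN (20 mg/kg) over DN (200 of 22213 genes) and 3 of 35 in SIN (40 mg/kg) over DN (417 of 22041 genes), where edgeR called 0. Leaving out each rat gave 0 to 1 in SIN (40 mg/kg) over normal. At an unadjusted p under 0.05, leaving out each rat gave 3 to 10 in SIN (20 mg/kg) over DN (3 without DN replicate 3, SIN (20 mg/kg) replicate 3 or SIN (20 mg/kg) replicate 4, and 5 without DN replicate 1, DN replicate 2 or SIN (20 mg/kg) replicate 2), 4 to 7 in SIN (40 mg/kg) over DN (7 without SIN (40 mg/kg) replicate 1), 1 to 4 between the doses, 2 to 7 in SIN (20 mg/kg) over normal and 1 to 5 in SIN (40 mg/kg) over normal. With all 16 rats in 1 fit the count was 1 between the doses and 1 in SIN (40 mg/kg) over normal. The log2 ratio of Col1a1 to the first alpha 2 row alone was -0.14 in SIN (20 mg/kg) over DN and -0.32 in SIN (40 mg/kg) over DN, beside -0.40 and -0.46 with both rows. Between the doses, the log2 ratio of Col1a1 to alpha 2 was -0.07 and 0.00408 without SIN (20 mg/kg) replicate 1 (range -0.118 to 0.00408), and that to Col3a1 was -0.12 and 0.0121 without SIN (40 mg/kg) replicate 4 (range -0.227 to 0.0121). Where no value shows it, the cause was not tested. Single-gene values were followed for members at an unadjusted p under 0.05 and, in comparisons with DN, for those with the largest or smallest log2 fold changes. Of these values, 18 lost the call and 18 gained it, and the others kept direction and call. Members outside that set could change direction, as Col14a1 did without DN replicate 3 in DN over normal and in SIN (40 mg/kg) over DN. The calls lost were those of DN over normal, where Col1a1 passed in 9 of 14 alternatives, Col9a1 in 8 and Col15a1 in 7. Col9a1, at 1 to 10 counts in DN rats, is limited by depth. Levels with another gene length were not run, since the reference used here gives no transcript length.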

Other observations

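Of the 11 members tested in no comparison, Col28a1 was at 0.82, 0.16, 0.66 and 0.52 CPM with 20 mg/kg and at 0.22 to 0.38 CPM in DN rats. Col26a1 had no count in SIN (20 mg/kg) replicates 1, 3 and 4 and had counts in the other 13 rats, at 0.04 to 0.27 CPM. Col9a3 was at 0.05 to 0.31 CPM in the normal rats and had no count in DN replicates 3 and 4, SIN (20 mg/kg) replicates 2 and 3 and SIN (40 mg/kg) replicates 1 and 4. These values rest on at most 19 counts per rat.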
